A study of Rattus norvegicus with 6 samples.

Results

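The plasma cell genes AABR07060872.1 (ENSRNOG00000049829), AABR07065625.1 (ENSRNOG00000034190), Jchain (ENSRNOG00000003666) and Mzb1 (ENSRNOG00000022009), were followed through the cell types of the rat pancreas. They are 4 of the 32883 genes in the single-cell count tables. They were chosen by their UMI levels in earlier results of the same tables, which were high in antibody-secreting cells and higher in old rats, so their differences between groups are given as a description, without a test. Both AABR loci carry only a clone-based name, and the tables pair them with an identifier and no description. Which immunoglobulin chain, if any, each of them encodes was not determined here.

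The cells came from the pancreas of male Wistar rats, with 2 rats and 1 library per rat in each of 3 groups. Young rats were 2 months old and ate normal chow. Old rats ate normal chow for 18 months and were 20 months old. HFHF-old rats were of the same age, and their diet over those 18 months was high in fat and fructose (HFHF), which is the study's model of diet-induced type 2 diabetes. Each tissue was dissociated and its cells were collected over a density gradient, so the share of a cell type in a library depends on the isolation as well as on the tissue. Age and diet were compared over rats, and a group of 2 against 2 cannot give an exact permutation p below 0.333.

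Plasma cells are B lymphocytes that secrete antibody, for which they expand the endoplasmic reticulum (ER). Jchain encodes the joining chain that links IgM and IgA into polymers before epithelia export them. Mzb1 encodes an ER protein that assists the assembly and secretion of immunoglobulin in marginal zone B cells and plasma cells. Plasma cells of glands and mucosa such as those of the digestive tract are known for IgA, which leaves the tissue bound to the polymeric immunoglobulin receptor.

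Plasma cells were taken as cells with a UMI (unique molecular identifier, 1 count per captured transcript) of at least 2 of 3 gate genes. These are Tnfrsf17, the receptor BCMA that keeps plasma cells alive, Prdm1, the repressor that ends the B cell programme, and Derl3, a gene of ER-associated degradation. Derl3 had 0 UMIs in all 78024 barcodes, so the gate was Tnfrsf17 with Prdm1. It held 238 of 75201 kept cells, called plasma-gated below. Of these, 180 lay in a cluster of 1371 cells in which 9 of 9 mast cell markers were more than 2-fold above the other cells. Its 10 leading genes were nonetheless the 4 members, 4 further loci with clone-based names, AABR07034739.1 and AABR07034739.2 among them, and of mast cell genes only Cpa3 and Cma1, so it is called the mixed cluster and given no cell type. Of the gated cells 18 lay in the B-like cluster and 19 in a cluster with 9 of 11 T cell markers more than 2-fold above the other cells. That cluster had no CD3 gene among its 10 leading genes, which included Il17rb and Il1rl1, and it is given no cell type here. Just outside the gate, the 167 cells with Tnfrsf17 alone had a median of 35 UMIs of AABR07060872.1, against 7007.5 in the gate, but their upper quartile was 3910.5 and 47.3% of them held over 100 UMIs, against 92.0% in the gate. The 12979 cells with Prdm1 alone had a median of 0.

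The other cell types were clusters named after marker genes, without the plasma-gated cells. The 4075 B-like cells had 10 of 10 measured B cell markers more than 2-fold above the other cells, the 2759 T-like cells 11 of 11 T cell markers, the 2671 acinar-like cells 11 of 11 acinar markers, and the 3187 islet (endocrine-like) cells 14 of 15. The libraries held 77387928 to 166875258 UMIs, with medians of 2537 to 9391.5 UMIs per kept cell, and any pair shared 20 to 69 barcodes. The library of HFHF-old rat 2 stood apart. Of its 11716 cells 8212 were NK-like, Prdm1 was detected in 56.1% of its cells against 7.70% to 17.1% in the other libraries, and only 5 of its cells were islet cells.

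Of the 4 members, Jchain had an upstream sequence in the reference table used, and it is shown because the members were high in the same cells. The 250 bases before the start of Jchain in RefSeq (build GRCr8, chr14:19822726-19822975, plus strand, 5′ to 3′) are printed with each match to CANNTG, the E-box bound by basic helix-loop-helix factors such as E2A, in capitals.
Jchain: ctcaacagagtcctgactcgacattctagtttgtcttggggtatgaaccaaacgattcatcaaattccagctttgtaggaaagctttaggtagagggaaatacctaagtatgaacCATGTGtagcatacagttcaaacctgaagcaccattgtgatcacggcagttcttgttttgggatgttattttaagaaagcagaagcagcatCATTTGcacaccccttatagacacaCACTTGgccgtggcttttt
The matches begin 135, 44 and 19 bases before the start, and 65.5% of all 33469 promoter windows of the same length hold at least 1 such match on either strand. None of the octamer ATGCAAAT (1.56% of windows), TATAAA (12.9%) and ACGTG (16.6%) was in this window on either strand, and none of the searched motifs overlapped another there.

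Plasma-gated cells numbered 20 and 3 in young rats 1 and 2, 67 and 123 in old rats 1 and 2, and 14 and 11 in HFHF-old rats 1 and 2. They made up 0.115% and 0.0292% of the kept cells in the young rats. In the old rats they made up 0.908% (exact 95% binomial interval 0.704 to 1.15) and 0.751% (0.624 to 0.895). In the HFHF-old rats the share was 0.117% and 0.0939%. Of the 11716 kept cells of HFHF-old rat 2, 8212 were NK-like, which lowers the share of every other class in that library. Both old rats lay above every young and every HFHF-old rat, and the intervals, which cover counting error only, did not meet. The mean share was 0.757 percentage points higher in old than in young rats and -0.724 percentage points in HFHF-old minus old rats. Each had a two-sided exact permutation p of 0.333, the smallest this design allows. The members were chosen for high levels in antibody-secreting cells and in old rats, and the gate with earlier results known. This share is therefore not independent of that choice, and its p is no separate support.

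A cell with more UMIs is more likely to pass a gate on detected genes. Plasma-gated cells had medians of 10193 to 23397 UMIs, above the median of their library in every rat. With each cell thinned to 2000 UMIs both old rats stayed highest, with 0.0286% and 0% in young (the 0 allows up to 0.0374%), 0.232% and 0.189% in old, and 0.00996% and 0.0180% in HFHF-old rats. This left out 622 to 6840 cells per library that held fewer UMIs, the most in old rat 2. As a share of plasma-gated plus B-like cells they were 2.88% and 1.25%, 7.14% and 6.83%, and 3.86% and 3.99%.

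Within the B-like cluster, cells with a UMI of the B cell markers Ms4a1 (CD20), Pax5 or Cd79b were 198 and 29 in the young, 49 and 29 in the old, and 98 and 115 in the HFHF-old rats. That was 29.3% and 12.2%, 5.62% and 1.73%, and 28.1% and 43.4% of the cluster, and the values thinned to 2000 UMIs kept this order, with both old rats lowest. As a share of the library they were 1.14% and 0.282%, 0.664% and 0.177%, and 0.817% and 0.982%, where the young and old rats overlapped. There were 1.37 and 4.24 plasma-gated cells for each such cell in the old rats and 0.0957 to 0.143 in the other 4. Cd79b was found in plasma-gated cells too. Over 100 UMIs of AABR07060872.1 were held by 3 of the 29 marker cells of old rat 2, 6 of 198 in young rat 1 and 5 of 115 in HFHF-old rat 2. Whether these are plasma cells that missed the gate was not tested. Cells with no UMI of Ms4a1, Pax5 or Cd79b were 56.6% to 98.3% of the cluster, the most in old rat 2. The cluster is mixed, since Siglech, a gene of plasmacytoid dendritic cells, was detected in 6.30% to 13.9% of its cells. Tcf4 was detected in 40.4% to 71.4%, Irf8 in 41.1% to 69.8% and the T cell marker Cd3e in 2.11% to 8.65%. What the cells without B cell markers are was not tested.

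**Figure D1:**
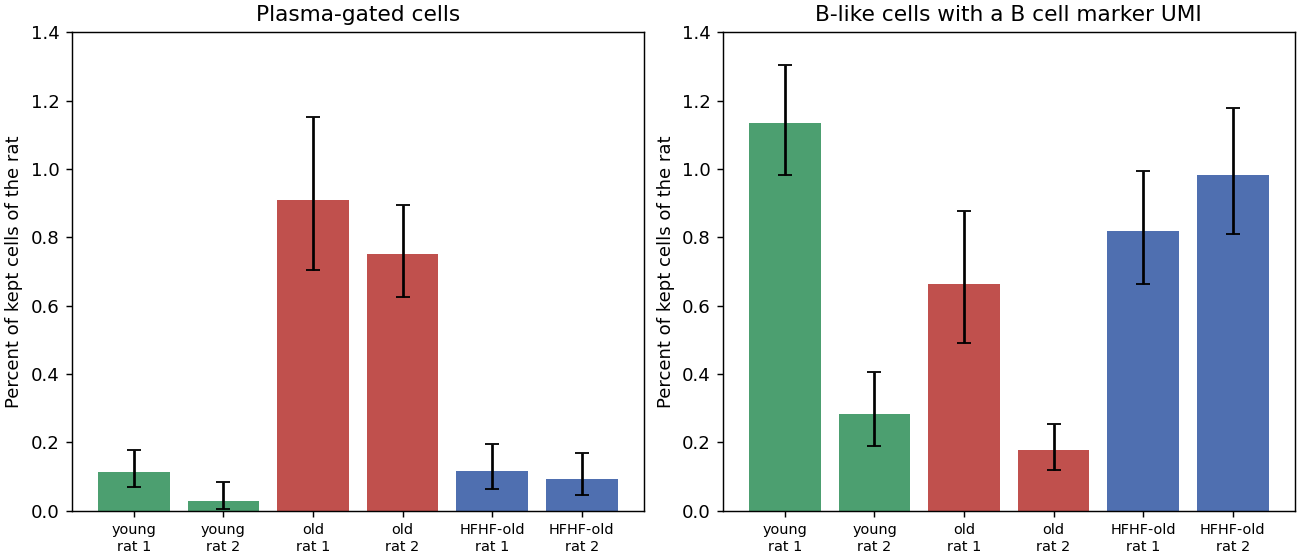
Share of the kept cells of each rat, in percent, that were plasma-gated (left) or B-like with a UMI of Ms4a1, Pax5 or Cd79b (right), with 1 bar per rat and exact 95% binomial intervals. Plasma-gated cells reached 0.908% and 0.751% in the old rats against 0.117% or less elsewhere, while the B cell shares of young and old rats overlapped.

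Both AABR loci were the leading transcripts of the plasma-gated cells of the old rats, with 40.1% and 14.4% of their pooled UMIs. In CPM, the UMIs of a gene per 1000000 UMIs of the summed cells, AABR07060872.1 stood at 341158 in young rat 1, 373882 and 425876 in old rats 1 and 2, and 266073 and 403347 in HFHF-old rats 1 and 2. AABR07065625.1 stood at 134540, then 162258 and 127793, then 124664 and 167700 in the same order. Old and HFHF-old rats overlapped for both loci, and young rat 1 lay below both old rats for the first and between them for the second. Together the loci took a median of 58.9% of the UMIs of a plasma-gated cell, 42.0% for the first and 15.5% for the second. Young rat 2 is left out of these sums because it held 3 such cells, of which 1 carried 59.6% AABR07060872.1 and the others 0%.

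Jchain, the joining chain, stood at 5056 CPM in young rat 1, 5159 and 3750 in the old rats, and 3555 and 3280 in the HFHF-old rats. Mzb1, the ER cofactor, stood at 1837, at 2124 and 4077, and at 2092 and 2838. The median plasma-gated cell gave 0.395% of its UMIs to Jchain and 0.217% to Mzb1. Jchain was the 1 member of 4 with both old rats above both HFHF-old rats, as were 15.7% of all genes in these cells, and Mzb1 and both loci overlapped. The gate gene Tnfrsf17 had 338, 356, 296, 210 and 237 CPM over the same 5 rats, and Prdm1 had 247, 202, 178, 192 and 277, both being required of every gated cell.

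**Figure D2:**
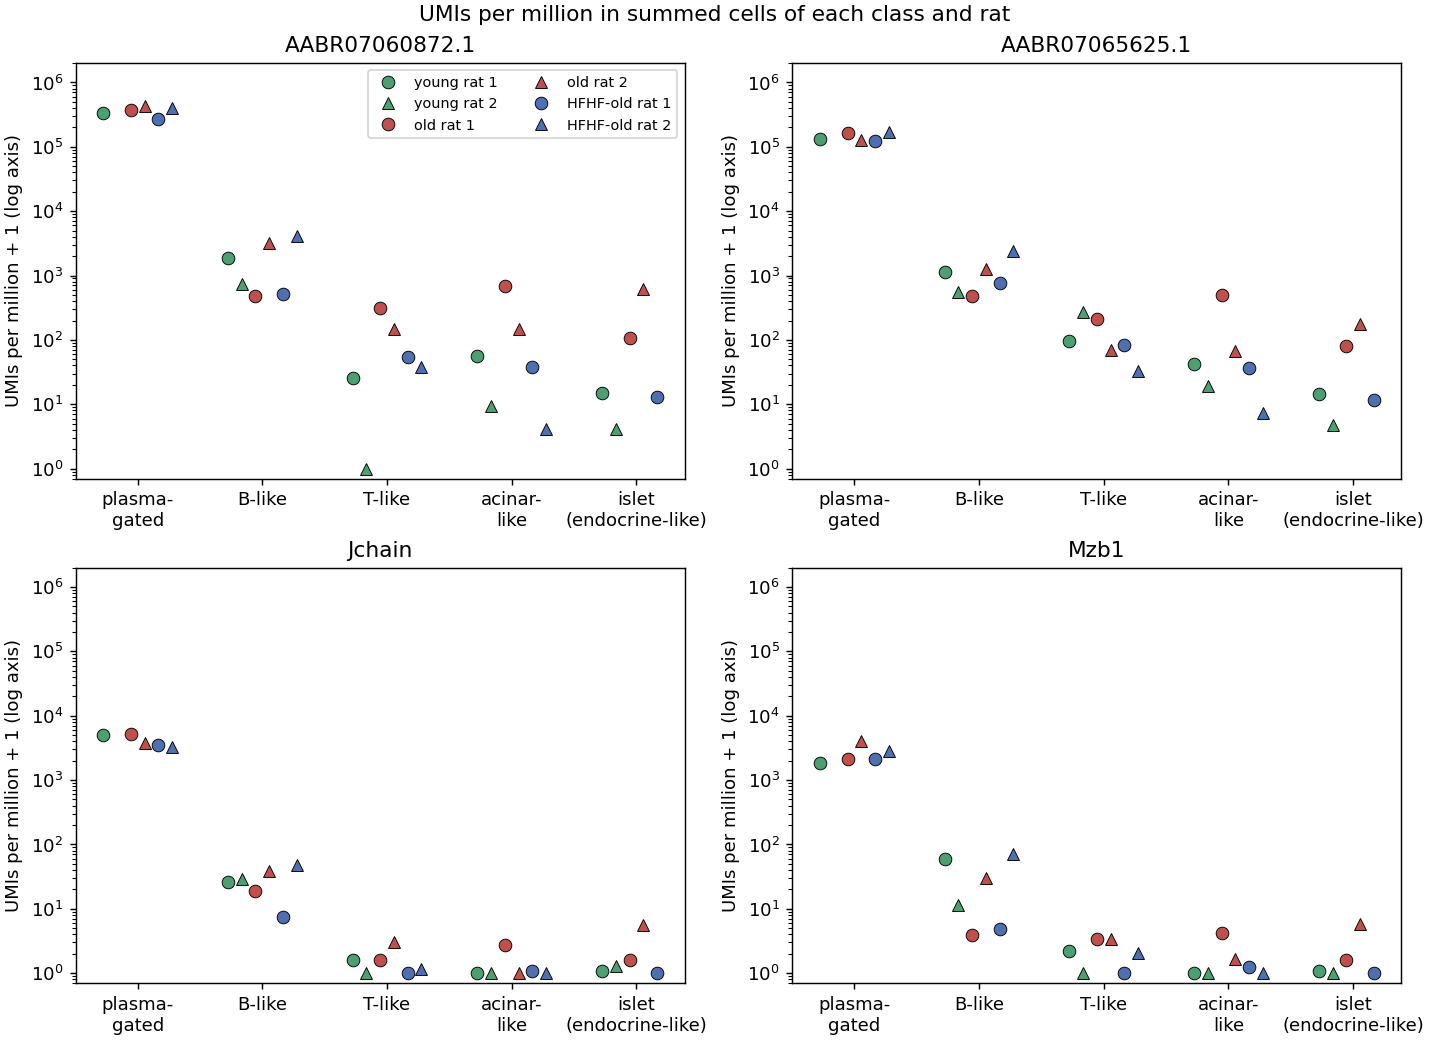
CPM plus 1, on a log axis, of each member in the summed cells of 5 cell classes, with 1 point per rat where the class held 10 or more cells. In plasma-gated cells the rats lie together, from 266073 to 425876 for AABR07060872.1, and in acinar-like and islet cells the old rats lie above the others for both loci.

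Plasma cells differed from each other in which locus they carried. Of the 238 plasma-gated cells 17 had less than 1% of their UMIs from AABR07060872.1, and 11 of these instead gave 24.9% to 48.4% to AABR07034739.1, a further locus with a clone-based name. Those 11 came from young rat 1 (2 cells), old rat 1 (2), old rat 2 (4) and HFHF-old rat 1 (3). The other 6 of the 17 had less than 1% of AABR07034739.1 as well. The median of AABR07034739.1 over all gated cells was 0.732%, and only 2 cells, both of young rat 1, held more than 10% of both. High levels of the pair were therefore found in separate cells of 4 rats, with those 2 cells as the exceptions.

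AABR07065625.1 varied in another set of cells. It was below 1% in 14 cells that held 13.6% to 70.1% of AABR07060872.1, and all 14 were from old rat 2. Igh-6, an immunoglobulin heavy chain gene, took more than 1% of the UMIs in 11 cells, 9 of them in old rat 2 and 1 each in young rat 1 and HFHF-old rat 1. In these it reached 1.46% to 11.8%, and AABR07065625.1 took 0.826% to 6.94% with a median of 4.66%, below its median of 15.5% over all gated cells. Ighg1, another heavy chain gene, had a UMI in 2 gated cells. Cells of a rat are not replicates, and these patterns describe the 238 cells.

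**Figure D3:**
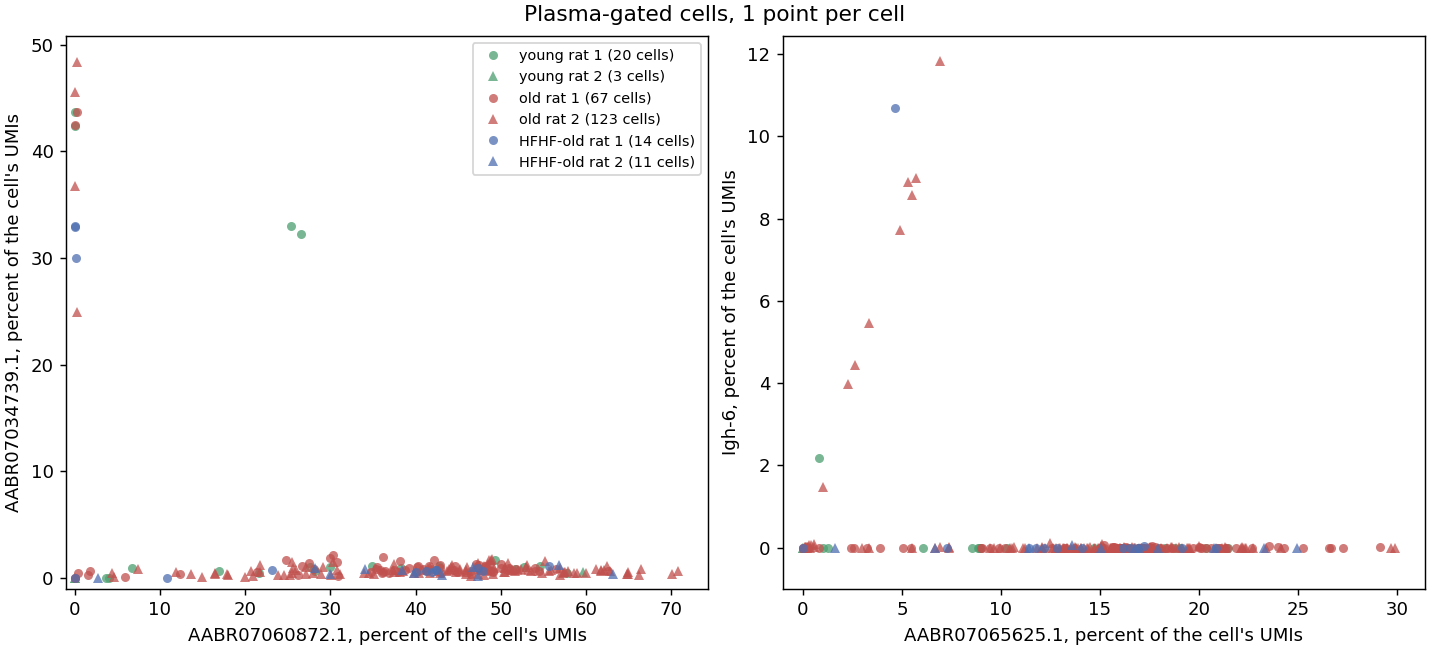
Percent of a cell's UMIs from AABR07060872.1 against AABR07034739.1 (left) and from AABR07065625.1 against Igh-6 (right), with 1 point per plasma-gated cell, coloured by group and shaped by rat. In the left panel 11 cells lie along the vertical axis and 6 near the origin, with less than 1% of either locus. The rest lie along the horizontal axis, with 2 cells of young rat 1 between. In the right panel Igh-6 rises above 1% in 11 cells, none of which passes 6.94% of AABR07065625.1.

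The genes that plasma cells use to fold and export antibody were high in the gated cells. Of 30 listed ER and secretion genes 26 had every plasma-gated sum above every B-like sum, where 1.91% of 10912 genes did so, and the median log2 ratio of gated to B-like cells was 2.04 against -1.24 for all genes. Ssr4, a subunit of the translocon-associated complex, averaged 2369 CPM in gated cells and 346 in B-like cells. Hsp90b1 (GRP94), an ER chaperone, averaged 2083 and 337, Txndc5, a disulfide isomerase, 1298 and 50.5, and Sec11c, a signal peptidase subunit, 958 and 67.5. Since both AABR loci take 58.9% of the UMIs of the median gated cell, every other gene is lowered there by that share, and the negative median of all genes includes it.

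Among 17 regulators of the plasma cell state, 11 had every gated sum above every B-like sum (median log2 ratio 1.85). Tnfrsf17 and Prdm1, at 287 against 0.631 and 219 against 31.5, are 2 of the 11 by the gate itself. Pou2af1, a coactivator of octamer factors, averaged 351 against 47.9, Fam46c, a poly(A) polymerase that stabilises secretory transcripts, 351 against 36.8, and Eaf2, an elongation factor partner, 334 against 33.1. Ell2, the elongation factor that favours the secreted form of the heavy chain, averaged 414 against 324 and its sums overlapped. Xbp1, which expands the ER, and Bhlha15 (MIST1), a factor of secretory cells, were picked after their values were seen. Xbp1 averaged 127 against 20.6 and Bhlha15 39.8 against 0.474.

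Of 19 B cell identity genes 0 had every gated sum above every B-like sum, with a median log2 ratio of -3.37. Ralgps2 averaged 274 in gated and 138 in B-like cells, Cd79b, a chain of the B cell receptor, 144 and 119, Ebf1, an early B cell factor, 78.1 and 399, and Cd37 46.3 and 264. Cells with a UMI of Ms4a1, Pax5 or Cd79b were only 5.62% and 1.73% of the B-like cells of the old rats. In the other rats they were 12.2% to 43.4%. The B-like averages therefore include many cells without these markers, and the Ralgps2 and Cd79b values do not place gated cells above B cells. No receptor of immunoglobulin had every gated sum above every B-like sum (0 of 9, beside 1.91% of all genes, median log2 ratio -2.41). Fcer1g, the shared signalling chain of Fc receptors, averaged 69.4 and 999, Fcgrt 54.9 and 76.6, Fcgr2b 43.2 and 156, and Fcmr 16.7 and 154. Their log2 ratios were -3.83, -0.47, -1.83 and -3.13, so Fcgrt lay above the median of all genes and the others below it. Of 22 niche and homing genes 1 had every gated sum above every B-like sum (median -0.54). This was Ccr10, the receptor that leads IgA plasma cells to epithelia, at 74 against 1.4, with 39.8 as the lowest gated sum and 3.09 as the highest B-like sum. Cxcr4, Itga4 and Tgfb1, the other niche genes with high counts, averaged 97.7 against 152, 148 against 382 and 27.9 against 269.9. Their log2 ratios were -0.64, -1.36 and -3.23, beside the median of -1.24 for all genes, so Cxcr4 lay above that median, Itga4 near it and Tgfb1 below it.

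**Figure D4:**
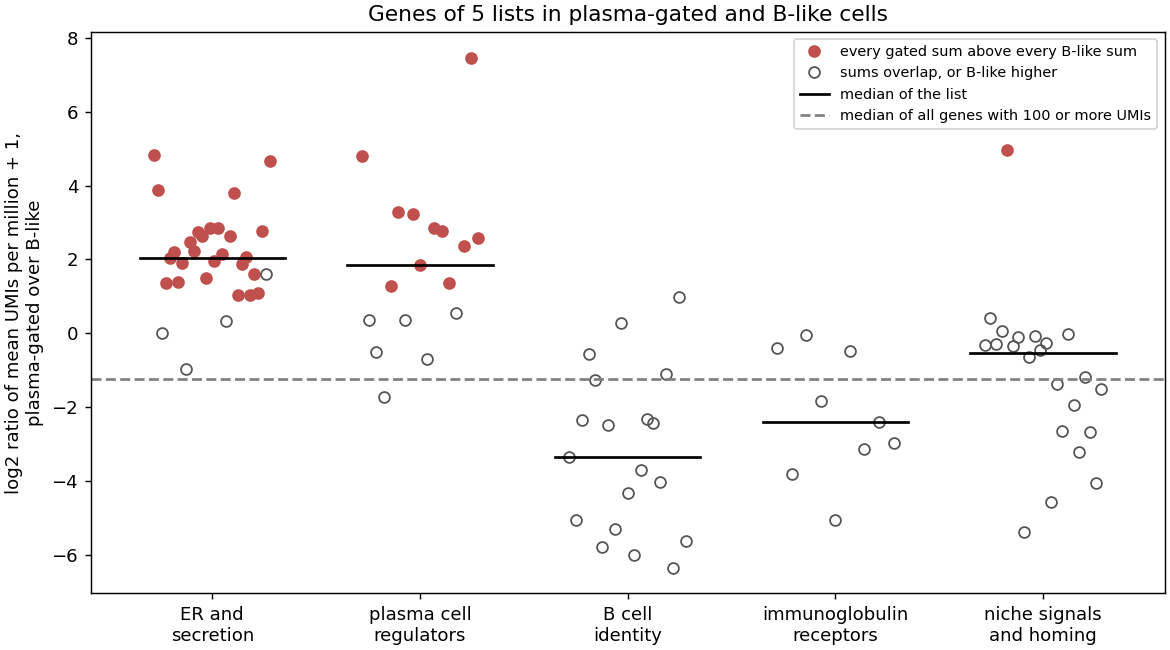
Log2 ratio of mean CPM plus 1 in plasma-gated over B-like cells, with 1 point per gene of 5 lists, filled where every gated sum lies above every B-like sum. Filled points number 26 of 30 for ER and secretion, 11 of 17 for plasma cell regulators, 1 of 22 for niche signals and 0 in the other lists, and the dashed line at -1.24 is the median of all 10912 genes.

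B-like cells carried much less of each member, and with all cells the groups overlapped for all 4. AABR07060872.1 had 1874 and 732 CPM in the young, 487 and 3160 in the old, and 509 and 4177 in the HFHF-old rats. AABR07065625.1 had 1153 and 545, 473 and 1243, and 767 and 2370. A few cells set the high values, since 30 cells of old rat 2, 6 of young rat 1 and 6 of HFHF-old rat 2 held over 100 UMIs of AABR07060872.1. Without them the level of that locus was 927 and 732, 487 and 471, and 509 and 1338, and that of AABR07065625.1 was 973 and 545, 473 and 310, and 767 and 1497. The cells left out were picked by their own UMIs of the locus, and 3 of the 6 rats had none, so these values describe the remaining cells and set no order of the groups.

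Jchain had 24.9 and 28.5 CPM in the B-like cells of the young rats, 17.9 and 37.6 in the old, and 6.35 and 46.8 in the HFHF-old rats. Mzb1 had 57.7 and 10.5, 2.88 and 28.9, and 3.86 and 70.4. Without the same cells Mzb1 had 34.8 and 10.5, 2.88 and 2.94, and 3.86 and 20.4, and Jchain 20.5 and 28.5, 17.9 and 16.9, and 6.35 and 34.2. With all B-like cells, 0 of 4 members had both old rats above both young rats (12.4% of genes did) or above both HFHF-old rats (16.6%). In the cells with a UMI of Ms4a1, Pax5 or Cd79b, the median number of UMIs of AABR07060872.1 was 15 and 40 in young, 19 and 16 in old, and 13 and 21 in HFHF-old rats, and that of AABR07065625.1 was 18 and 24, 21 and 8, and 23 and 22. The median plasma-gated cell, at 7007.5 and 2487 UMIs of the loci, was far above these medians in every group.

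T-like cells, which make no antibody, gave the level that other cells can show. AABR07060872.1 had 24.9 and 0 CPM (the 0 allows up to 8.63) in the young, 316 and 148 in the old, and 53.9 and 37.4 in the HFHF-old rats. AABR07065625.1 had 95.4 and 270, 211 and 69.2, and 82.0 and 31.6, so that young rat 2, with 25 T-like cells, was highest. Jchain and Mzb1 were near nothing, at 0 to 6 and 0 to 12 UMIs in the whole class of a rat. By order alone 3 members (AABR07060872.1, Jchain and Mzb1) had both old rats above both young rats, as did 15.9% of genes, and the same 3 had both old above both HFHF-old rats, as did 18.4%. For Jchain and Mzb1 neither order is established, since the 0 UMIs of each allow up to 8.63 CPM in young rat 2 and 7.02 in HFHF-old rat 1, above both old rats.

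Acinar-like cells had 55.0 and 8.26 CPM of AABR07060872.1 in the young, 684 and 145 in the old, and 37.5 and 3.17 in the HFHF-old rats. AABR07065625.1 had 41.9 and 18.1, 498 and 66.3, and 35.6 and 6.34. In CPM both loci and Mzb1 had both old rats highest (6.31% of genes against young, 13.9% against HFHF-old). Mzb1 amounted to 13 and 1 UMIs in the old rats and Jchain to 7 and 0, too few to set an order. In UMIs per cell the order against HFHF-old rats did not hold for the loci. AABR07060872.1 had 0.687 in old rat 2 and 0.775 in HFHF-old rat 1, and AABR07065625.1 0.313 and 0.736. The median acinar-like cell held 2383 UMIs in old rat 2 and 10294 in HFHF-old rat 1. Islet cells had 14.2 and 3.13 of AABR07060872.1 in the young, 107 and 615 in the old, and 11.9 in HFHF-old rat 1, and 13.4 and 3.80, 79.0 and 177, and 10.6 of AABR07065625.1. HFHF-old rat 2 had 5 islet cells and is not given. All 4 members had both old above both young rats there (3.24% of genes did). In old rat 2, however, 16 of 1319 islet cells held 89.7% of the UMIs of AABR07060872.1, and without them its level was 63.6. The same cells held 83.2% of AABR07065625.1, 82.9% of Jchain and 85.1% of Mzb1, which without them were at 29.8, 0.792 and 0.713 CPM, still above both young rats. Jchain rested on 5 UMIs in old rat 1 against 4 in young rat 2, too few to set their order.

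Free RNA, transcript released into the suspension, is captured with any cell and gives all classes of a library a like low level. Leaving out the top 2% of cells in each class, old rat 1 had 2.39 to 3.37 UMIs of AABR07060872.1 per cell in acinar-like, islet, T-like, NK-like, macrophage-like, fibroblast-like and endothelial-like cells, and 83.7% to 91.9% of the cells of each had a UMI. The median over those of the 7 classes with 50 or more cells (6 in young rat 2, 5 in HFHF-old rat 2) was at 2.71 UMIs in old rat 1, 0.384 in old rat 2, 0.193 and 0.0286 in the young rats, and 0.241 and 0.0604 in the HFHF-old rats. Old rat 1 was highest, although old rat 2 had more of the locus in all. These are UMIs per cell, and the median kept cell held 7739 UMIs in old rat 1 and 2537 in old rat 2. In CPM, without cells over 100 UMIs of the locus, the gap between the old rats was smaller. Old rats 1 and 2 had 684 and 145 in acinar-like, 107 and 63.6 in islet, and 316 and 114 in T-like cells. NK-like cells had 294 and 109, macrophage-like 363 and 192, and fibroblast-like 309 and 181. Endothelial-like cells were not computed this way. With all cells the order turned in islet cells, at 107 and 615, and in fibroblast-like cells, at 309 and 2263.

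A share of B-like cells with a UMI can be read only against this level. In old rat 1 the locus was detected in 90.3% of B-like cells, within the range of the 7 other classes, so the share does not set B-like cells apart there. Its mean in B-like cells of that rat, without the top 2%, was 4.95 UMIs, above all 7 classes, and the median class was 54.8% of it. In the other rats the median class was 0.404% to 18.1% of the B-like value, so most of the B-like level there was above it. Taken over all cells of a library, the median class came to 0.506% to 3.49% of all UMIs of AABR07060872.1 and to 0.950% to 7.31% of those of AABR07065625.1. For Jchain and Mzb1 leaving out the top 2% removes most cells with a UMI, so all cells were used. In old rat 1 Jchain then averaged 0.00510 to 0.0435 UMIs per cell over the 7 classes and Mzb1 0.0137 to 0.0222, against 0.214 and 0.0344 in B-like cells.

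**Figure D5:**
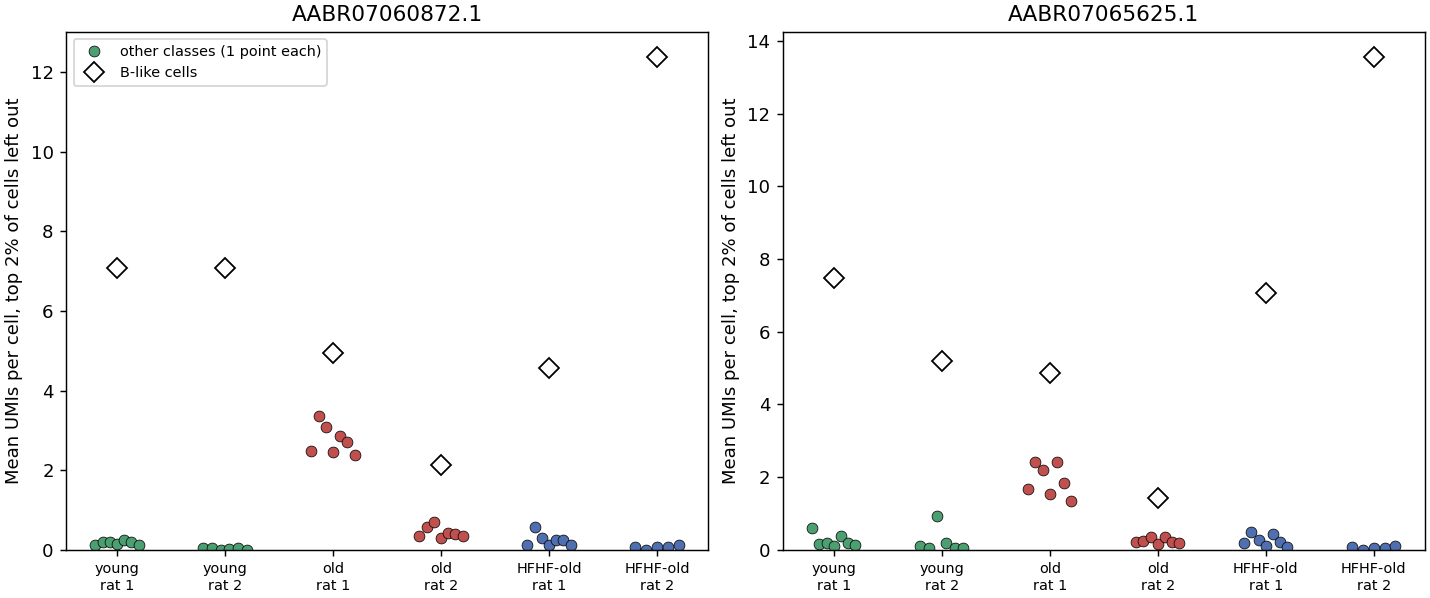
Mean UMIs per cell of both loci without the top 2% of cells, with 1 diamond per rat for B-like cells and 1 coloured point (green young, red old, blue HFHF-old) for each of 5 to 7 other classes of 50 or more cells. The points of old rat 1 lie at 2.39 to 3.37 for AABR07060872.1, above those of the other rats, and its B-like value is 4.95.

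The ratio of the loci to each other varied between classes. AABR07060872.1 was 68.1% to 76.9% of the UMIs of both loci in plasma-gated cells. In old rat 1 it was 50.8% in B-like, 57.9% in acinar-like, 57.6% in islet and 59.9% in T-like cells, against 69.7% in its plasma-gated cells, with intervals that did not reach it. In old rat 2 it was 71.8% in B-like, 68.7% in acinar-like, 68.2% in T-like and 77.7% in islet cells, against 76.9% in its plasma-gated cells. The B-like and islet values of that rat rest on 30 and 16 cells with over 100 UMIs of AABR07060872.1. Without them the loci stood at 471 and 310 CPM in B-like and at 63.6 and 29.8 in islet cells. In young rat 2 it was 1.46% in NK-like (exact 95% interval 0.670 to 2.76), 4% in neutrophil-like (2.83 to 5.47) and 0 of 94 UMIs in T-like cells. NK-like cells of that rat held 140 CPM of AABR07065625.1 and its acinar-like cells 18.1. AABR07065625.1 was therefore present with little AABR07060872.1 in several lymphoid and myeloid classes of this rat, and the source of these UMIs was not tested.

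Summed over all kept cells of a rat, each member stood highest in both old rats. AABR07060872.1 had 1306 and 291 CPM in the young, 10573 and 16157 in the old, and 609 and 1154 in the HFHF-old rats (means ± SD 798 ± 718, 13365 ± 3949 and 882 ± 385, n = 2). AABR07065625.1 had 585 and 137, 4635 and 4908, and 328 and 500 (361 ± 317, 4772 ± 193 and 414 ± 122). Jchain had 19.3 and 4.31, 144 and 138, and 8.18 and 9.63, and Mzb1 had 9.90 and 1.71, 60.7 and 153, and 4.90 and 9.11. All 4 had both old above both young rats, as did 10.6% of genes, and both old above both HFHF-old rats, as did 15.6%, an order that was known when the members were chosen. In such a sum fewer plasma cells and less RNA per plasma cell cannot be told apart.

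Most of these UMIs sat in few cells. Plasma-gated cells held 88.6% and 83.0% of the AABR07060872.1 of the young rats, 85.3% and 64.0% in the old, and 88.6% and 88.9% in the HFHF-old rats. In old rat 2 a further 24.2% lay in cells of the mixed cluster that missed the gate, and in old rat 1 7.32%, against 1.45% or less in the other rats. Over all rats 299 cells held more than 1000 UMIs of the locus and 91 of them were outside the gate, 74 in old rat 2 and 11 in old rat 1. The gate therefore missed more such cells in old rat 2, the library of lowest median depth.

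Outside the gate both old rats again stood highest. AABR07060872.1 had 149 and 49.4 CPM in the young, 1597 and 5967 in the old, and 69.8 and 128 in the HFHF-old rats, and AABR07065625.1 had 129 and 80.9, 741 and 1852, and 75.6 and 74. Jchain had 2.13 and 1.53, 19.8 and 48.6, and 0.978 and 1.29, and Mzb1 3.69 and 1.18, 9.75 and 55.1, and 0.655 and 1.90. Again 4 of 4 members had both old above both young rats (10.5% of genes) and above both HFHF-old rats (15.9%). These sums hold the missed cells and the low level of all classes together.

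The genes around the members were tested in each class across rats with edgeR's quasi-likelihood test, with p-values adjusted over all genes (Benjamini-Hochberg) and a change called at an adjusted p under 0.05 and over 1.5-fold. In B-like cells 2 of 11751 genes (0.017%) were called between old and young rats, both higher, and 0 between HFHF-old and old rats, where 1888 genes (16.1%) had an unadjusted p under 0.05 and DESeq2 called 363 (3.09%). In old against young rats 1014 genes (8.63%) had an unadjusted p under 0.05 and DESeq2 called 127 (1.08%). Of 19 B cell identity genes 0 were called in either comparison. Their median log2 change was -1.88 in old against young rats, with 13 lower at an unadjusted p under 0.05 and 5 called by DESeq2, and 2.87 in HFHF-old against old rats, with 14 higher and 12 called by DESeq2. All genes tested had medians of 0.01 in both, with 3.91% lower and 7.68% higher at an unadjusted p under 0.05 in the same comparisons.

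Ebf1 had 695 and 115 CPM in the B-like cells of the young rats, 60.5 and 20.3 in the old, and 564 and 939 in the HFHF-old rats. Its log2 difference was -3.15 (SE 0.84, adjusted p = 0.416, edgeR) in old against young and 4.05 (SE 0.87, adjusted p = 0.174, edgeR) in HFHF-old against old rats. Bank1, a B cell scaffold protein, had 384 and 196, 172 and 75.2, and 618 and 1450, and Bach2, a repressor that holds back the plasma cell programme, 530 and 96.6, 80.1 and 52.4, and 422 and 686. Both old rats were lowest for all 3 genes, as they were for the share of B-like cells with a B cell marker. Cd37, the fourth by level, was at 225 to 349 in every rat.

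Among the other lists in B-like cells, 0 of 29 ER and secretion genes, 0 of 14 plasma cell regulators, 0 of 8 immunoglobulin receptors and 0 of 14 niche genes were called by edgeR in either comparison. In old against young rats 1, 6, 2 and 6 of them had an unadjusted p under 0.05 (8.63% of all genes did) and DESeq2 called 0, 3, 0 and 3 (1.08%). In HFHF-old against old rats it was 5, 8, 2 and 5 (16.1%), and DESeq2 called 0, 4, 2 and 5 (3.09%). In plasma-gated cells 0 of 4228 genes were called between HFHF-old and old rats by edgeR, with 213 (5.04%) at an unadjusted p under 0.05 and 2 (0.0473%) called by DESeq2. The medians there were -0.25 for 29 ER and secretion genes and 0.08 for 14 regulators, against 0.02 for all genes.

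Secretory cells are the acinar-like and islet cells together, in a mix that differed between rats. The acinar-like and islet cells numbered 346 and 730 in young rat 1 and 558 and 578 in young rat 2. They numbered 745 and 257, then 332 and 1319 in the old rats, and 632 and 298, then 58 and 5 in the HFHF-old rats. How far this mix sets the differences below was not tested. In secretory cells edgeR called 11 of 13562 genes (0.0811%) between old and young rats, 9 higher (0.0664%) and 2 lower (0.0147%). Of the listed genes 1 was among them, the heavy chain gene Igh-6 (adjusted p = 0.0034). It had 0 UMIs in both young rats, 72 and 1035 in the old, and 23 and 0 in the HFHF-old rats. The lower old rat, at 5.97 CPM, was at least 26.8-fold higher than the 0.223 that 3 UMIs would give in the shallower young rat. In old rat 2 5 cells held 98.3% of its UMIs and in old rat 1 57 of 1002 cells held a UMI each or more. Igh-6 was called under all 9 alternatives, DESeq2 and each rat left out in turn among them, with adjusted p = 0.032 as the highest (DESeq2). All 4 members had both old above both young rats in these cells as well (2.91% of genes did) and above both HFHF-old rats (33.5%). For Jchain, at 0.995 and 4.34 CPM in the old rats, and Mzb1, at 1.49 and 4.52, the order against HFHF-old rats is not established, since the 0 UMIs of each in the 63 secretory cells of HFHF-old rat 2 allow up to 7.62 CPM.

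Pigr, which carries polymeric immunoglobulin across epithelia, had 10.6 and 8.94 CPM in the secretory cells of the young, 37.5 and 3.56 of the old, and 63.6 and 33.0 of the HFHF-old rats. The young and old rats overlapped, as did the old and HFHF-old rats. Pigr was not compared within acinar-like or islet cells, only in the mixed sums of secretory cells. In these cells 0 of 7 immunoglobulin receptors, 0 of 29 ER and secretion genes, 0 of 12 plasma cell regulators, 0 of 13 niche genes and 0 of 11 B cell genes were called by edgeR in old against young rats, where 1, 2, 0, 1 and 1 had an unadjusted p under 0.05 (555 of all genes did, 4.09%) and DESeq2 called 0 in each list (7 of all genes, 0.0516%). In HFHF-old against old rats 43 genes (0.317%) were called, 27 higher (0.199%) and 16 lower (0.118%), and 0 of each list were among them, with 2, 6, 3, 4 and 2 at an unadjusted p under 0.05 (1691 of all genes, 12.5%) and 1 ER and secretion gene called by DESeq2 (77 of all genes, 0.568%).

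In macrophage-like cells edgeR called 1 of 12573 genes (0.00795%) between old and young rats and 6 (0.0477%) between HFHF-old and old rats. HFHF-old rat 2 had too few of these cells, so the HFHF-old arm was 1 rat whose spread the fit took from the other groups, and the second comparison is not used further. In fibroblast-like cells edgeR called 2 of 13888 (0.0144%) and 0, and in HFHF-old against old rats 862 genes (6.21%) had an unadjusted p under 0.05, with 126 (0.907%) called by DESeq2. Of the listed genes edgeR called 0 in macrophage-like cells of old against young rats and 0 in either comparison of fibroblast-like cells. The closest was Igh-6, with adjusted p = 0.0676 in macrophage-like and 0.114 in fibroblast-like cells in old against young rats (edgeR).

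DESeq2 did call listed genes in these 2 classes. For B cell identity, ER and secretion, immunoglobulin receptors, niche and plasma cell regulators in that order, it called 3, 0, 2, 1 and 3 in macrophage-like cells of old against young rats, where 3, 3, 3, 3 and 5 had an unadjusted p under 0.05 in edgeR. Of all genes 389 (3.09%) were called by DESeq2 there and 1864 (14.8%) had an unadjusted p under 0.05. In fibroblast-like cells it called 0, 0, 0, 1 and 1 in old against young rats (3, 0, 0, 6 and 2 unadjusted), where it called 170 of all genes (1.22%) and 922 (6.64%) had an unadjusted p under 0.05. It called 0, 0, 0, 2 and 0 in HFHF-old against old rats (4, 1, 0, 3 and 0 unadjusted). Igh-6 was called by DESeq2 in old against young rats in both classes and in HFHF-old against old rats in fibroblast-like cells.

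Across 82 sums of a class in a rat, each with 10 or more cells, the genes most like each member were the other members and a pair of loci named AABR07034739.1 and AABR07034739.2. By Pearson correlation of log2(CPM + 1) over 16562 genes, Mzb1 was nearest to AABR07034739.2 (r = 0.964), Jchain (0.952), AABR07065625.1 (0.926), AABR07060872.1 (0.925) and Tnfrsf17 (0.899). Jchain was nearest to Mzb1, AABR07034739.2 (0.945) and AABR07034739.1 (0.933), followed by AABR07065625.1 (0.923) and AABR07060872.1 (0.920). Both AABR members had Mzb1 first and Jchain second, then each other (0.918), AABR07034739.2 (0.914 and 0.918) and AABR07034739.1 (0.885 and 0.877). Plasma-gated cells were taken out of the other classes and kept as a class of their own among the sums. The gate requires Tnfrsf17, so it shapes the likeness of Tnfrsf17 to the members. The sums also share libraries and their free RNA, so these values describe likeness and carry no p.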

How the data were processed

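The 6 libraries were made with a droplet kit that reads the 3′ end of transcripts and were aligned to Rnor_6.0 with Cell Ranger, per the labels and the study's methods, whose Cell Ranger version differs from that in the deposited file headers. The authors deposited a table of UMI counts per gene and barcode for each rat, unnormalised, and every value here was computed from those counts. Barcodes under 200 genes, in the top 1% by genes or over 25% mitochondrial UMIs were left out, which kept 75201 of 78024. Cells were clustered with scanpy 1.11.5 (2000 variable genes, 10 principal components, 15 neighbours, resolution 1) into 27 clusters with the members, the gate genes, symbols of immunoglobulin genes and the plasma cell lists held out of the variable genes (other AABR loci were not), and clusters were named from marker lists. Simulated doublets labelled 8401 barcodes, which were kept and left out in an alternative. UMIs were summed per rat and class, with 10 or more cells, divided by the class total and given in CPM.

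Sums were tested with edgeR 4.0.16 (TMM, quasi-likelihood, groups of the class fitted together, filterByExpr) in R 4.3.3, with Benjamini-Hochberg adjustment, and with DESeq2 1.42.0 as an alternative. Each rat is 1 replicate, as the labels give separate rats. On simulated counts of the B-like sums in old against young rats (11558 genes), 56 of 97 genes changed 4-fold and 9 of 96 changed 2-fold were recovered. Every simulated gene had a dispersion of 0.1, which was not matched to the real sums. The recovery therefore does not tell how large a change the real sums could show. The members, gate and gene lists were chosen with earlier results of these data known. Named genes were the members, the gate genes, the called genes of each list or else the 4 highest by mean, the 5 genes most like each member, and the 10 leading genes of plasma-gated cells in old rats. Genes named outside this rule are said to be so. Floors of 3 counts and exact binomial intervals cover counting error only.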

Additional observations from a re-analysis of the deposited data

How the results depend on the processing

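The difference in the share of plasma-gated cells kept its direction under every alternative, at 0.196 to 0.820 percentage points for old against young and -0.196 to -0.802 for HFHF-old against old rats. Leaving out 1 rat gave 0.679 to 0.836 and -0.802 to -0.645. As a percent of gated plus B-like cells, chosen after seeing the data, the differences were 4.92 and -3.06. A gate of all 3 genes gave no value, since Derl3 had 0 UMIs. For the same reason the alternative of Tnfrsf17 with at least 1 other gate gene was the main gate itself and tests nothing. Of 248 alternatives for the members' log2 ratios between groups, 203 stayed within 1 SD of the spread between rats and 45 moved further, and 36 changed sign, 6 of them among the 8 that kept only B-like cells with a B cell marker. Of the 203, 96 came from leaving out 1 rat. In groups this small that step cannot move a ratio beyond this spread, so their place within it says nothing about stability. Of these 96 ratios 14 did change sign, so their direction depended on 1 rat. All 45 that moved further came from the other settings.

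The number of genes called depended on the setting, and the cause was not tested. Results follow in the order B-like, secretory, macrophage-like and fibroblast-like cells, each with old against young (2, 11, 1 and 2 called) and then HFHF-old against old (0, 43, 6 and 0 called), and last plasma-gated cells in HFHF-old against old (0 called). DESeq2 called 127, 7, 389 and 170, then 363, 77, 129 and 126, and 2. Testing every gene with 1 or more UMIs gave 620, 171, 992 and 520, then 1066, 591, 731 and 501, and 0. Library size in place of TMM gave 2, 31, 33 and 2, then 0, 69, 11 and 1, and 0. Without doublet-labelled barcodes, 2, 15, 45 and 1, then 0, 64, 9 and 0, and 10 were called, the last without HFHF-old rat 2, which fell under 10 cells. Leaving out 1 rat gave 0 to 0, 36 to 93, 0 to 34 and 0 to 2, then 0 to 5, 0 to 412, 6 to 6 and 0 to 159, and 0 to 49, where a lone rat is assumed to vary like the other groups. Without old rats 1 and 2, counts for old against young were 93 and 63 in secretory, 33 and 34 in macrophage-like and 2 and 1 in fibroblast-like cells. Without young rats 1 and 2 they were 39 and 36, 0 and 0, and 0 and 0, and in B-like cells 0 without any 1 of these rats. For HFHF-old against old, leaving out HFHF-old rats 1 and 2 gave 5 and 2 in B-like, 0 and 1 in secretory, 159 and 9 in fibroblast-like and 21 and 20 in plasma-gated cells. Leaving out old rats 1 and 2 gave 412 and 90 in secretory and 49 and 0 in plasma-gated cells. In macrophage-like cells HFHF-old rat 1 could not be left out, being the only one of its group there.

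The labels number the rats of each group, but these are different animals. Same-numbered rats had correlated deviations of 0.00471 to 0.0994 (young and old), -0.0334 to 0.146 (old and HFHF-old) and -0.167 to 0.162 (young and HFHF-old), so the numbers do not pair them. With the replicate block 0, 28, 463 and 2, then 0, 96, 72 and 1, and 27 genes were called. In HFHF-old against old rats, Ebf1, Bank1 and Bach2 in B-like cells were called under 2 of 9 alternatives each, and their adjusted p ran up to 0.804. In old against young rats Ebf1 and Bach2 were called under 1 of 9 and Bank1 under 0 of 9. Igh-6 was called under 3 of 9 in macrophage-like and 2 of 9 in fibroblast-like cells. Plasma-gated sums rest on 11 to 123 cells per old and HFHF-old rat, which limits what they can show of low genes.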

Other observations

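In the 190 plasma-gated cells of the old rats, the genes highest by ratio to all other cells were not the members but 10 loci that each appeared in 2 to 7 cells. They were AABR07027451.1, AABR07065778.3, AABR07051684.1, AABR07051611.1, AABR07051730.1, AABR07065837.1, AABR07065883.1, AABR07051551.2, AABR07051733.3 and AABR07061036.1. AABR07065837.1 had 816 UMIs in 7 gated cells and 14 in all other cells of the old rats. AABR07051684.1 had 188 UMIs in gated cells, of which 184 (97.9%) were in 1 cell, and AABR07051733.3 had 198, of which 183 were in 1 cell. None of them was spread over the gated cells as both member loci were, and the tables give no description of these loci.

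In old rat 1 the neutrophil-like class of 346 cells had 9444 CPM of AABR07060872.1, and 3 of those cells held more than 100 UMIs each. Without the top 2% of cells the mean was 2.71 UMIs per cell, within the range of the other classes of that rat.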
